A study of Homo sapiens with 6 samples.

Results

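Synaptic vesicle and exocytosis genes were followed through 3 cultures of the human neuroblastoma cell line SK-N-AS. The genes are 10 named members, SYT1, SYT4, SYN1, SYP, SV2A, RAB3A, VAMP2, SNAP25, STX1A and CPLX1, out of 19775 genes with a probe set of their own on the arrays, and all 16 probe sets that carry a member's symbol were read. They are represented by 1 to 3 probe sets each, and where a gene has several, the one brightest on average over the 6 arrays leads. iCSC cells, short for induced cancer stem cells, were exposed to 2.5 uM 5AdC for 5 days while attached and then grown as spheroids in medium without serum. 5AdC, or 5-aza-2'-deoxycytidine, blocks the enzymes that methylate DNA. Sphere cells grew as spheroids in the same kind of medium with no drug before, and Monolayer cells grew attached with no drug. All 3 cultures are the same line, which is 1 tumour's cells, and each was measured on 2 Affymetrix arrays. The labels do not say whether both arrays of a group stem from separately grown cells, so a p-value here covers only array-to-array spread, possibly technical. Having 2 arrays a group limits the precision.

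A neuron or neuroendocrine cell releases transmitter by fusing vesicles with its surface membrane when calcium enters. The vesicle protein VAMP2 and the membrane proteins SNAP25 and STX1A are SNAREs, which zip together and pull both membranes into contact, while complexins such as CPLX1 bind the assembled SNAREs. Synaptotagmins sense calcium, synapsins such as SYN1 hold vesicles in reserve, and RAB3A is a small GTPase on the vesicle. Neuroblastoma arises from sympathetic precursors, whose mature descendants store catecholamines and release them by this machinery. Levels below are log2 GCRMA signals as deposited, and a probe set was taken as measured from log2 5 upward, called the limit here. A level under the limit is near the array's background.

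Promoters of 4 members are shown because 5AdC acts on methylation at CG steps: those of the 3 members whose iCSC level was called different from both other cultures in the same direction and with every iCSC array outside their range, and that of STX1A, which was called in both spheroid cultures against Monolayer. Each is a RefSeq window on GRCh38.p14, from 250 bases before to 50 bases after a transcript start, and CG steps are in capitals. Methylation itself was not measured. Like STX1A, SNAP25 and SV2A were called in both spheroid cultures against Monolayer. SNAP25 has no window, and that of SV2A is described below but not shown. SYT1 (chr12:78864524-78864823, plus strand, a start lying 792 bases inside the annotated gene) was highest in iCSC, SYT4 (chr18:43277441-43277740, minus strand) and SYN1 (chrX:47619808-47620107, minus strand) were lowest in iCSC, and STX1A (chr7:73719620-73719919, minus strand) was higher in both spheroid cultures than in Monolayer.
SYT1: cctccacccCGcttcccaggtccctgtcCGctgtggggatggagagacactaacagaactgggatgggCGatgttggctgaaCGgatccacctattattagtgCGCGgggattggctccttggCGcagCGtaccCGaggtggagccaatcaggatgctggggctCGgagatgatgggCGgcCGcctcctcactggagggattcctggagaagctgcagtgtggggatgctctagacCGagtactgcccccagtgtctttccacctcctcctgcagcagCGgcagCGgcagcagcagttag
SYT4: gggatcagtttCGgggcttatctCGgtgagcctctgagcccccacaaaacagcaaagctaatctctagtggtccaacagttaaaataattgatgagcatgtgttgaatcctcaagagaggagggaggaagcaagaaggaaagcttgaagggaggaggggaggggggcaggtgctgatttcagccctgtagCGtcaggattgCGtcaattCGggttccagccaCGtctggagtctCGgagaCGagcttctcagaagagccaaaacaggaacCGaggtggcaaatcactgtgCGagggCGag
SYN1: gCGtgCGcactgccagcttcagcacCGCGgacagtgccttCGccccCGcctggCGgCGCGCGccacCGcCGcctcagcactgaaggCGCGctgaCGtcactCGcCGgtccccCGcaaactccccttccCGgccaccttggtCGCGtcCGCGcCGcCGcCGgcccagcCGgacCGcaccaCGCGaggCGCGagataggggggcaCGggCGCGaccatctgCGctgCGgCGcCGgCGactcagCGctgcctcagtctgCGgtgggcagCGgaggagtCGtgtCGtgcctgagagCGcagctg
STX1A: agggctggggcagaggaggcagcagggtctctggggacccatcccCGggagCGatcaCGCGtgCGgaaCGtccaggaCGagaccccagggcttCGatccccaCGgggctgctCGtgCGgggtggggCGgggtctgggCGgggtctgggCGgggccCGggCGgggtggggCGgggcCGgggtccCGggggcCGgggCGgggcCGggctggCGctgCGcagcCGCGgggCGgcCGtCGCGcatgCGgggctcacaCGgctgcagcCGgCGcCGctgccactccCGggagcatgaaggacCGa

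The windows differ widely in CG steps. SYN1 has 46, more than 97.1% of the 35116 windows in the table hold, and STX1A has 37, whereas SYT1 has 15 and SYT4 has 11, near the median of 14. The table holds windows for 8 of the 10 members and none for SNAP25 and CPLX1. VAMP2, with 2 overlapping windows, has 47 and 51 CG steps, SYP has 35 and RAB3A 30, and the SV2A window has 3 but lies 10853 bases inside the gene. On both strands the windows were also searched for TTCAGCACC, the first part of the RE1 element bound by the repressor REST, for the cyclic AMP response element TGACGTCA and for the GC box GGGCGG. SYN1 holds TTCAGCACC from position -233 relative to the start, a string found in 0.376% of windows. SYN1 also holds TGACGTCA at position -159, as do 1.85% of windows somewhere. No other member's window holds either string, and none of the 3 strings overlaps another. The GC box occurs 7 times in STX1A, 4 times in SYP, 3 times in RAB3A, 5 and 4 times in the VAMP2 windows and 1 time in SYT1, against 45% of all windows with at least 1. Such a match is a string of letters in this window and no evidence that a factor was bound.

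The 6 arrays had medians of 2.78 to 2.83 (log2), and arrays of 1 culture correlated at 0.984 to 0.996 over 10459 tested genes, against 0.729 to 0.859 between cultures. The beta-actin control probe sets, whose 3' minus 5' difference is a sign of RNA quality, differed by 1.47 and 1.40 (log2) on the iCSC arrays, above the 1.16 to 1.25 on the other 4, and those of GAPDH by 0.12 to 0.20 on all 6. The iCSC arrays were the least alike, and several members differed between them. On iCSC replicate 2 the log2 level was above that on replicate 1 by 1.83 for SYN1, 1.70 for SYP, 1.44 for SNAP25, 1.33 for CPLX1 and 1.22 for STX1A. Of the 8 tested members 4 exceeded a gap of log2 1 in this direction, as did 173 of 10459 tested genes (1.65%). Of the markers of sympathetic neuroblasts, 7 of 8 on the arrays reached the limit on both arrays in iCSC, 7 in Sphere and 3 in Monolayer, with DBH under it on all 6 arrays. Their summed signal (log2) was 12.75 to 12.95 in iCSC, 14.84 to 15.03 in Sphere and 9.89 to 10.23 in Monolayer. Schwann cell and glial markers were under the limit on all arrays (6 of 6), and so were 5 of 6 leukocyte markers, the exception being PTPRC at 2.85 and 2.87 in iCSC, 12.42 and 12.52 in Sphere and 11.64 and 11.84 in Monolayer. Fibroblast and mesenchymal markers reached the limit on both arrays for 6, 6 and 4 of 8 in iCSC, Sphere and Monolayer, with summed signals of 13.61 to 13.87, 14.50 to 14.53 and 14.35. Among epithelial markers 1, 2 and 2 of 6 did so (8.20 to 8.48, 8.34 to 8.59 and 12.88 to 13.05), and among endothelial markers none in iCSC or Sphere and 1 of 5 in Monolayer (6.12 to 6.34, 5.94 to 5.99 and 8.03 to 8.15). The part of any of these in the results below was not tested. In such bulk samples fewer cells of a type and less RNA per cell cannot be told apart.

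The members did not move as a block. SNAP25, STX1A and CPLX1, which form or bind the SNARE complex, were higher in Sphere than in Monolayer, SYT1 was highest in iCSC, SYT4 and SYN1 were lowest in iCSC, and VAMP2 was lowest in Sphere. SYP and RAB3A stayed under the limit on all 6 arrays and were not tested. In iCSC against Sphere, 2 of the 8 tested members rose, 3 fell and 3 did not pass the test, where 38.5% of all tested genes were called (19.3% up and 19.2% down). In Sphere against Monolayer, 4 rose, 2 fell and 2 did not pass, where 59.0% were called (30.0% up and 29.1% down). In iCSC against Monolayer, 3 rose, 3 fell and 2 did not pass, where 55.6% were called (29.0% up and 26.6% down). Genes were called at an adjusted p under 0.05 in limma with Benjamini-Hochberg adjustment over all 10459 genes. The median log2 fold change of the 8 was -1.23, 0.39 and 0.90 in the 3 comparisons in this order, against 0.01, 0.01 and 0.02 over all tested genes. SNAP25 and CPLX1 entered the test through the spheroid cultures, so the filter favoured a rise over Monolayer, and the counts describe the 8 tested members and not all 10. Without Sphere replicate 1 the count in iCSC against Sphere was 3 instead of 5, and without Monolayer replicate 1 or 2 the count in Sphere against Monolayer was 4 instead of 6. Without Monolayer replicate 1 the count in iCSC against Monolayer was 4 instead of 6.

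**Figure D1:**
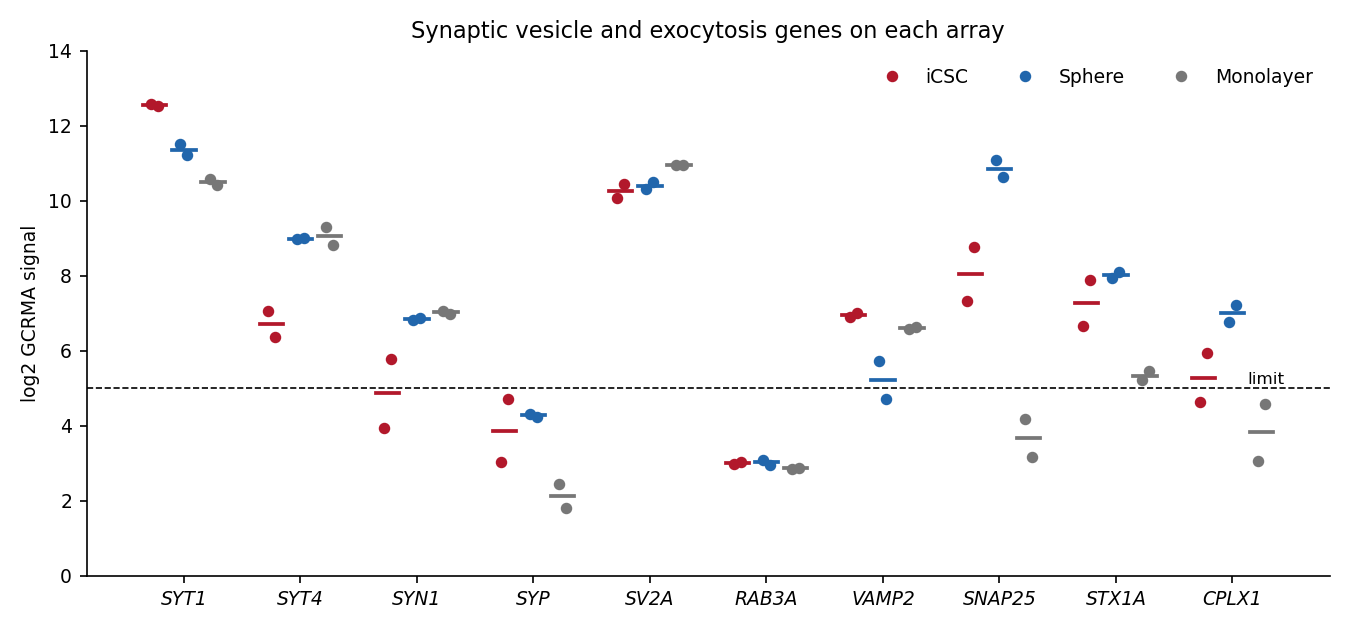
Log2 GCRMA signal (y axis) of the leading probe set of each member (x axis) on the 2 arrays of iCSC, Sphere and Monolayer, with points for arrays, short lines for culture means and a dashed line at the limit of log2 5. SNAP25 lies above log2 10 on both Sphere arrays and under the limit on both Monolayer arrays, and SYT1 steps down in order from iCSC through Sphere to Monolayer.

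SYT1, the calcium sensor of fast transmitter release, had levels of 12.57 and 12.52 in iCSC, 11.52 and 11.21 in Sphere and 10.58 and 10.42 in Monolayer. The 3 cultures did not overlap, and each step in this order passed the test. The log2 fold change was 1.18 ± 0.12 (SE) in iCSC against Sphere, a 2.26-fold higher signal (limma, adjusted p = 0.000601). Sphere exceeded Monolayer by 0.87 ± 0.12, or 1.82-fold (adjusted p = 0.00116), and iCSC exceeded Monolayer by 2.04 ± 0.12, or 4.12-fold (adjusted p = 3.33e-05). A second SYT1 probe set gave the same order, with 12.48 and 12.16 in iCSC, 11.10 and 10.90 in Sphere and 10.52 and 10.27 in Monolayer. SYT1 kept all 3 calls under each of 16 alternatives, its adjusted p ranging from 0.000324 to 0.0289 in iCSC against Sphere.

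SYT4, a synaptotagmin of dense-core and other vesicles whose first calcium-binding domain lacks a calcium ligand found in SYT1, ran the other way. Its levels were 7.05 and 6.36 in iCSC, 8.97 and 9.0 in Sphere and 9.31 and 8.82 in Monolayer. Both iCSC arrays lay below all others, while the Sphere arrays fell within the Monolayer range. SYT4 fell by 2.28 ± 0.26 on the log2 scale in iCSC against Sphere, a 4.86-fold lower signal (limma, adjusted p = 0.000946), and by 2.36 ± 0.26, or 5.13-fold, in iCSC against Monolayer (adjusted p = 0.000511). The difference of Sphere from Monolayer was -0.08 with a 95% interval from -0.71 to 0.56 (adjusted p = 0.828). Both iCSC calls held under each of 16 alternatives, with adjusted p up to 0.0391 against Sphere and 0.0244 against Monolayer. SYT1 and SYT4 were each set apart in iCSC from both other cultures, with opposite signs.

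SYN1, which tethers vesicles in the reserve pool, fell, like SYT4, in iCSC against both other cultures. It had levels of 3.95 and 5.79 in iCSC, 6.82 and 6.86 in Sphere and 7.07 and 6.97 in Monolayer. The iCSC arrays lay below all others but differed by more than any other member's, and 1 of them was under the limit. The log2 fold change was -1.97 ± 0.53 (SE) in iCSC against Sphere (limma, adjusted p = 0.0279) and -2.15 ± 0.53 in iCSC against Monolayer (adjusted p = 0.0143). Without iCSC replicate 1 these values were -1.06 and -1.23, and without iCSC replicate 2 they were -2.89 and -3.06, all still called. Sphere and Monolayer differed by -0.18, with a 95% interval from -1.46 to 1.11 (adjusted p = 0.809). The call against Sphere was lost without Sphere replicate 1 (0.122), Sphere replicate 2 (0.126), Monolayer replicate 1 (0.0695) or Monolayer replicate 2 (0.0694), with no filter (0.0786), with the 4 arrays of the comparison alone (0.0693) and without variance moderation (0.167), in a range of adjusted p from 0.000281 to 0.167. The call against Monolayer was lost without Monolayer replicate 1 (0.0861) or replicate 2 (0.0743) and without moderation (0.114), in a range from 0.000158 to 0.114. The other SYN1 probe set was under the limit on all 6 arrays.

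REST, the repressor that binds RE1 elements whose first part is printed in the SYN1 window, was measured by 1 of its 3 probe sets. Its levels were 8.25 and 7.30 in iCSC, 6.20 and 6.22 in Sphere and 7.69 and 7.88 in Monolayer. Sphere was the low culture, and the iCSC and Monolayer arrays overlapped. REST rose by 1.57 ± 0.31 on the log2 scale in iCSC against Sphere (limma, adjusted p = 0.00816), no longer called without Sphere replicate 1 (0.0575), Sphere replicate 2 (0.0541) and variance moderation (0.0876), over a range of 0.00101 to 0.0876. In Sphere against Monolayer REST fell by 1.58 ± 0.31 (limma, adjusted p = 0.00459, range 0.00054 to 0.0587), where the fit without variance moderation did not pass. Of REST and its cofactors 9 were tested, of which 3 rose and 1 fell in iCSC against Sphere, 3 rose and 1 fell in Sphere against Monolayer, and 5 rose and 1 fell in iCSC against Monolayer, where 38.5%, 59.0% and 55.6% of all tested genes were called. Several of these calls were lost under many of the 16 alternatives, HDAC1 in iCSC against Sphere under 9, EHMT2 in Sphere against Monolayer under 7 and HDAC2 in iCSC against Monolayer under 9. Whether REST had a part in the members' levels was not tested.

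The remaining vesicle proteins changed little or were not measured. SV2A, a transporter-like vesicle glycoprotein that is the target of the drug levetiracetam, had levels of 10.07 and 10.45 in iCSC, 10.32 and 10.49 in Sphere and 10.96 and 10.95 in Monolayer. Both spheroid cultures lay below Monolayer and overlapped each other. SV2A fell by 0.55 ± 0.14 on the log2 scale in Sphere against Monolayer (limma, adjusted p = 0.0154, range 0.00342 to 0.0984) and by 0.69 ± 0.14 in iCSC against Monolayer (adjusted p = 0.0068, range 0.00207 to 0.0619). The Sphere call was lost without Sphere replicate 1 (0.0984), Monolayer replicate 1 (0.087), Monolayer replicate 2 (0.0814) and moderation (0.0874), and the iCSC call without Monolayer replicate 1 (0.0524) and moderation (0.0619). iCSC differed from Sphere by -0.14, with a 95% interval from -0.48 to 0.20 (adjusted p = 0.483). SYP, synaptophysin, a membrane protein of small vesicles and a routine stain for neuroendocrine tumours, was listed at 3.02 and 4.71 in iCSC, 4.31 and 4.24 in Sphere and 2.45 and 1.81 in Monolayer. RAB3A was listed at 2.98 and 3.04 in iCSC, 3.09 and 2.96 in Sphere and 2.85 and 2.87 in Monolayer. All 12 of these values lie under the limit, where no fold is given. With no filter on low values, over 19775 genes, SYP in Sphere against Monolayer had an adjusted p of 0.0364 in limma, and none of the other 5 comparisons of SYP and RAB3A passed, with adjusted p between 0.0747 and 0.925.

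SNAP25 had the widest range of the members, with its culture means spanning 7.18 on the log2 scale. Its levels were 7.33 and 8.77 in iCSC, 11.08 and 10.63 in Sphere and 4.18 and 3.17 in Monolayer. The cultures did not overlap, and iCSC lay between the others. Sphere was at least 57.9-fold above Monolayer, a bound taken with values under the limit set to 5 (limma on the values as deposited, adjusted p = 5.97e-05). Against Monolayer, the iCSC signal was at least 8.27-fold higher (limma, adjusted p = 0.000679), and it was 2.81 ± 0.52 (log2, SE) below Sphere, or 6.99-fold lower (adjusted p = 0.00709, range 0.000546 to 0.0947). The call between iCSC and Sphere was lost without Sphere replicate 1 (0.0619) and without variance moderation (0.0947), and the log2 fold change was -2.09 without iCSC replicate 1 and -3.53 without iCSC replicate 2. Against Monolayer the bound was 13.6-fold without iCSC replicate 1 and 5.03-fold without iCSC replicate 2.

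SNAP25 probe sets differed on the distance of iCSC from Monolayer. The second set read 4.98 and 6.41 in iCSC, 8.55 and 8.19 in Sphere and 4.77 and 4.71 in Monolayer, and another 2.98 and 3.88, 6.47 and 6.69, and 2.55 and 2.91 in the same order. Sphere was the highest culture in each of the 3 sets. All 3 were under the limit on both Monolayer arrays, so the filter favoured a rise over Monolayer. The dimmest set passed the filter through Sphere alone, which fixed its direction against both other cultures. All 3 sets were called lower in iCSC than in Sphere and higher in Sphere than in Monolayer in a fit over 18059 probe sets (limma, largest adjusted p = 0.00768 and 0.000602), but neither further set was called in iCSC against Monolayer (adjusted p = 0.109 and 0.106). Leaving out sets named x_at or s_at, the dimmest of the 3 leads and this log2 fold change is 0.70 ± 0.32 (adjusted p = 0.108, range over 16 alternatives 0.000435 to 0.108).

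**Figure D2:**
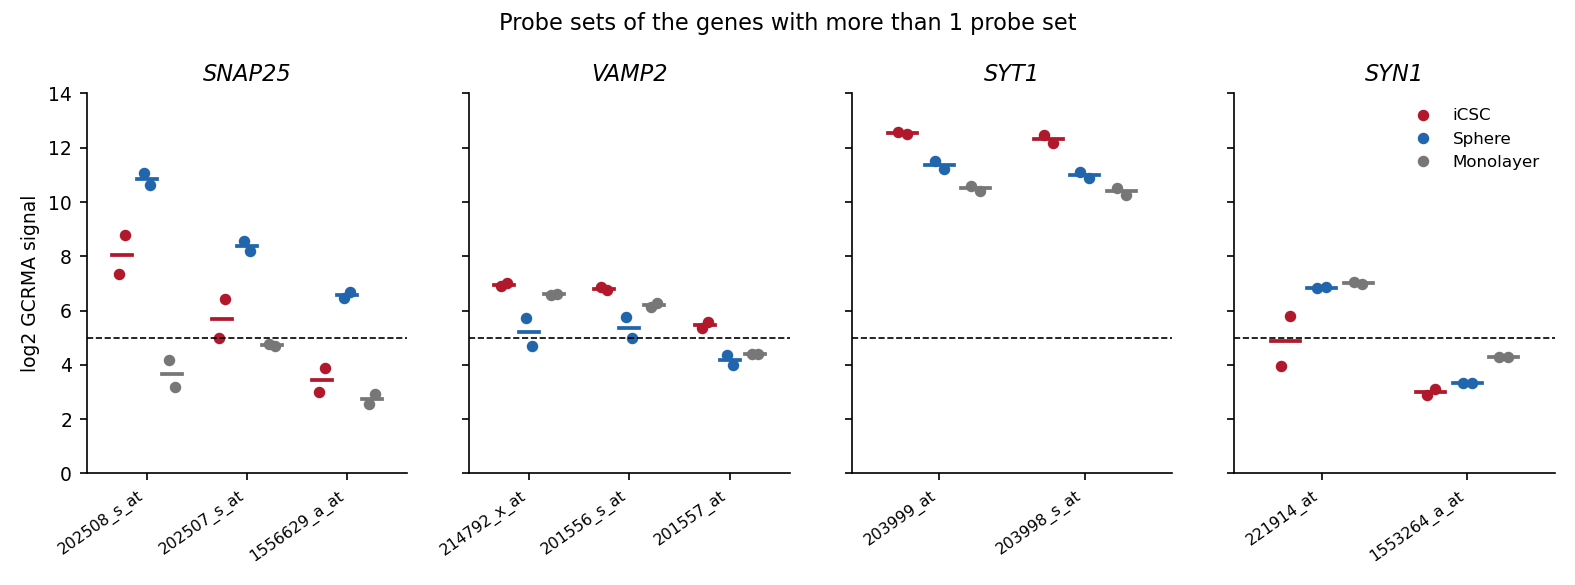
Log2 GCRMA signal (y axis) of each probe set (x axis) of SNAP25, VAMP2, SYT1 and SYN1 on the 2 arrays of iCSC, Sphere and Monolayer, with points for arrays, short lines for culture means and a dashed line at log2 5. The 3 SNAP25 probe sets all place Sphere highest, the dimmest having passed the filter through Sphere alone, and the 2 SYT1 probe sets show the same order of cultures.

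STX1A, the membrane SNARE that pairs with SNAP25, followed Sphere above Monolayer as well. Its levels were 6.66 and 7.89 in iCSC, 7.94 and 8.09 in Sphere and 5.21 and 5.45 in Monolayer. Both spheroid cultures lay above Monolayer, and the higher iCSC array nearly reached Sphere. STX1A rose by 2.69 ± 0.38 on the log2 scale in Sphere against Monolayer, or 6.43-fold (limma, adjusted p = 0.00118, same call under 15 alternatives), and by 1.94 ± 0.38, or 3.85-fold, in iCSC against Monolayer (adjusted p = 0.00545, range 0.000497 to 0.0695). The second of these was lost without variance moderation (0.0695), and it was 2.56 without iCSC replicate 1 and 1.33 without iCSC replicate 2. The difference of iCSC from Sphere, -0.74 with a 95% interval from -1.66 to 0.17, did not pass (adjusted p = 0.174, range 0.00638 to 0.664). It passed without iCSC replicate 2, at -1.35 (adjusted p = 0.00638).

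CPLX1, which binds the assembled SNARE complex and regulates fusion, had levels of 4.62 and 5.95 in iCSC, 6.76 and 7.23 in Sphere and 3.07 and 4.59 in Monolayer. Sphere was highest, 1 iCSC array and both Monolayer arrays were under the limit, and the lower iCSC array was close to the higher Monolayer array. Sphere exceeded Monolayer in CPLX1 at least 3.99-fold (limma, adjusted p = 0.0042, range 0.000246 to 0.0657), with no call where variances were not moderated (0.0657). The fitted log2 fold change of 3.17 was 2.41 without Monolayer replicate 1 and 3.93 without Monolayer replicate 2. iCSC differed from Sphere by -1.71 with a 95% interval from -3.16 to -0.27 (adjusted p = 0.0646, range 0.00577 to 0.251), and from Monolayer by 1.46 with an interval from 0.01 to 2.90 (adjusted p = 0.0797, range 0.00668 to 0.403), and neither passed. The first passed without iCSC replicate 2 (0.0366), with values under 5 set to 5 (0.0143) and with the replicate number as a block (0.00577). The second passed without iCSC replicate 1 (0.0385), without Monolayer replicate 2 (0.0387) and with that block (0.00668).

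VAMP2, the vesicle SNARE, did not follow its partners. Its leading probe set read 6.91 and 7.0 in iCSC, 5.72 and 4.71 in Sphere and 6.59 and 6.62 in Monolayer. Sphere was the low culture, with 1 array under the limit, and iCSC lay slightly above Monolayer. VAMP2 rose by 1.74 ± 0.32 on the log2 scale in iCSC against Sphere, or 3.34-fold (limma, adjusted p = 0.00661, range 0.00191 to 0.0796), with no call where variances were not moderated (0.0796). It fell by 1.39 ± 0.32 in Sphere against Monolayer (adjusted p = 0.00952, range 0.00177 to 0.429), which was lost without Monolayer replicate 1 (0.0568), Monolayer replicate 2 (0.0592), moderation (0.0798) and x_at and s_at probe sets (0.429). The difference of iCSC from Monolayer was 0.35 with a 95% interval from -0.43 to 1.12 (adjusted p = 0.397).

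The leading VAMP2 probe set has the suffix x_at, which marks probes that may match other transcripts. A second set read 6.86 and 6.76 in iCSC, 5.75 and 4.97 in Sphere and 6.14 and 6.27 in Monolayer, and a further set, without such a suffix, 5.35 and 5.58, 4.37 and 4.0, and 4.38 and 4.39 in the same order. iCSC was highest in each of the 3. All 3 were called higher in iCSC than in Sphere over 18059 probe sets (limma, largest adjusted p = 0.00772), the one without a suffix by a bound of at least 1.38-fold. That set was also called higher in iCSC than in Monolayer, at least 1.38-fold (adjusted p = 0.0041), and did not pass in Sphere against Monolayer, where all 4 arrays were under the limit (adjusted p = 0.427). It passed the filter through iCSC alone, so its direction against both other cultures was set by the filter and adds no support.

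**Figure D3:**
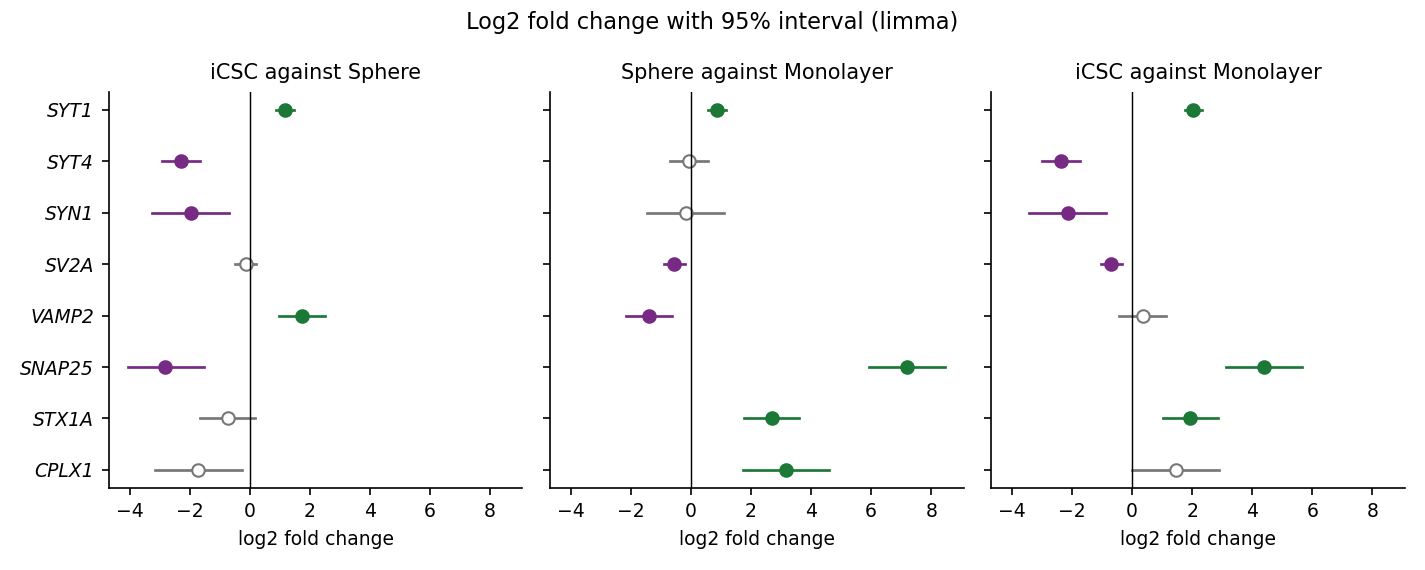
Log2 fold change (x axis) of the 8 tested members (y axis) in iCSC against Sphere, Sphere against Monolayer and iCSC against Monolayer, with points for estimates and lines for 95% intervals from limma. Filled points passed at an adjusted p under 0.05 and open points did not; the SNAP25 and CPLX1 estimates against Monolayer start from values under the limit, so their sizes are not bounds.

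Over the 13 member probe sets that passed the filter, 5 were called higher and 5 lower in iCSC against Sphere, where 34.5% of 18059 probe sets were called (17.4% up and 17.1% down). In Sphere against Monolayer 7 were called higher and 3 lower, where 57.0% were called (28.1% up and 28.9% down). In iCSC against Monolayer 5 were called higher and 3 lower, where 54.2% were called (27.7% up and 26.6% down). Probe sets of 1 gene share its transcripts and are not independent. Some, such as the dimmest SNAP25 and VAMP2 sets, entered through 1 culture, which fixed their direction against the others. No member had probe sets called in opposite directions in any comparison.

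Genes whose profile over the 6 arrays was nearest to SNAP25 and CPLX1, the members with the widest ranges of culture means, were found by the root mean square difference of log2 values centred on each gene's mean. For SNAP25 these were DYNLT3, a dynein light chain (0.326), RUNDC3A (0.396), CFAP95 (0.407), TMEM176A (0.463) and MAOA, a monoamine oxidase that breaks down catecholamines and serotonin (0.467). MAOA averaged 8.15 in iCSC, 10.71 in Sphere and 4.07 in Monolayer. For CPLX1 they were NEFH, the heavy neurofilament subunit (0.448), MPP3 (0.455), ATL1 (0.465), CELSR3 (0.472) and OAS3 (0.488). NEFH averaged 4.94 in iCSC, 7.32 in Sphere and 3.71 in Monolayer. These distances are descriptions over 6 arrays that share 3 cultures.

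A list of 128 further genes of vesicle docking, fusion and recycling, in 6 role groups, had 122 with a probe set of their own and 71 that passed the filter. In iCSC against Sphere, 11 rose, 19 fell and 41 did not pass, a called share of 42.3% against 38.5% over all genes. In Sphere against Monolayer, 25 rose, 21 fell and 25 did not pass (64.8% called against 59.0%), and in iCSC against Monolayer, 19 rose, 22 fell and 30 did not pass (57.7% against 55.6%). These shares are near the background, and the role groups below, of 7 to 19 tested genes, are read against it. Medians of the log2 fold change were -0.07, 0.07 and -0.04 in this order, against 0.01, 0.01 and 0.02 over all tested genes. Without Sphere replicate 1 the count called in iCSC against Sphere was 19 instead of 30. Some genes were under the limit on both arrays of a culture and passed the filter through another, which fixed their direction between these. Among these are RAB27B, SYTL2, SLC18A1 and SNAP91. SYT13, UNC13A, UNC13C, DOC2A and STON2 are among them in Sphere against Monolayer. The p-values of such genes add no support to the direction, nor do their places in the counts. SYN2 was under the limit in Monolayer and STXBP5 in iCSC, but each reached it on both arrays of both other cultures. For these genes the filter alone did not fix the direction, and their folds from under the limit are bounds.

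Among other SNARE proteins and complexins, none of 10 rose and 4 fell in iCSC against Sphere, while 4 rose and 2 fell in Sphere against Monolayer (limma), near the 38.5% and 59.0% called over all genes. In iCSC against Monolayer 1 rose and 1 fell, a called share of 20.0% against 55.6%. At an unadjusted p under 0.05, 1 of the 10 was higher in iCSC than in Sphere. VAMP4 lost its call in iCSC against Sphere under 9 of 16 alternatives and STX4 under 3, and in Sphere against Monolayer 2 of the 3 VAMP4 probe sets were called lower while the leading one was higher. VAMP3, a vesicle SNARE of general membrane traffic, averaged 10.74 ± 0.23 in iCSC, 11.81 ± 0.03 in Sphere and 10.89 ± 0.05 in Monolayer (SD, n = 2 each), falling by 1.06 ± 0.12 (log2, SE) in iCSC against Sphere and rising by 0.91 ± 0.12 in Sphere against Monolayer (limma, adjusted p = 0.000911 for both). STX2, a syntaxin of the surface membrane, rose by 1.41 ± 0.16 in Sphere against Monolayer (adjusted p = 0.000392) and by 1.14 ± 0.16 in iCSC against Monolayer (adjusted p = 0.00116). In the group of docking, priming and SNARE recycling, 2 of 19 rose and 4 fell in iCSC against Sphere (31.6% called against 38.5%). In Sphere against Monolayer 7 rose and 7 fell (73.7% against 59.0%). STXBP5, tomosyn, which binds SNAP25 and STX1A and restrains fusion, averaged 4.60 ± 0.45 in iCSC, 9.44 ± 0.22 in Sphere and 5.38 ± 0.27 in Monolayer (SD, n = 2 each). It was at least 21.6-fold lower in iCSC than in Sphere (limma, adjusted p = 3.88e-05) and rose by 4.05 ± 0.27 in Sphere against Monolayer (adjusted p = 3.92e-05). RAB27B, a GTPase of secretory granules, averaged 2.50 ± 0.03 in iCSC, 2.73 ± 0.07 in Sphere and 9.33 ± 0.58 in Monolayer, a signal at least 20.1-fold lower in either spheroid culture than in Monolayer (adjusted p = 6.88e-06 and 5.31e-06).

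Of other calcium sensors and their relatives, 4 of 7 rose and 2 fell in Sphere against Monolayer (85.7% called against 59.0% over all genes). In iCSC against Sphere 1 rose and 2 fell (42.9% against 38.5%). SYT9 and SYT13 were under the limit on both Monolayer arrays and DOC2A and SYTL2 on both Sphere arrays, so no direction is read from the first count. SYTL2, a granule-docking effector of RAB27 proteins, averaged 2.85 ± 0.02 in iCSC, 2.88 ± 0.08 in Sphere and 9.25 ± 0.07 in Monolayer (SD, n = 2 each), a signal at least 19.1-fold lower in either spheroid culture (limma, adjusted p = 1.18e-06 and 8.51e-07). Of vesicle membrane proteins and transporters, 2 of 8 rose and 4 fell in Sphere against Monolayer, where 59.0% of all tested genes were called. In iCSC against Sphere 1 rose and 1 fell, where 38.5% were called. The 2 that rose in Sphere, SYN2 and SLC18A1, were under the limit on both Monolayer arrays. SLC18A1, also the 1 that fell in iCSC, entered through Sphere alone, so no direction is read from its place in either count. SYN2, a paralog of SYN1, averaged 9.19 in iCSC, 9.10 ± 0.38 in Sphere and 3.51 in Monolayer, and its signal exceeded Monolayer at least 18.2-fold in iCSC and at least 17.1-fold in Sphere (adjusted p = 4e-06 and 3.04e-06). SLC18A1, the vesicular monoamine transporter of chromaffin cells, averaged 2.31 ± 0.03 in iCSC, 6.05 ± 0.29 in Sphere and 2.35 ± 0.02 in Monolayer, a signal at least 2.07-fold higher in Sphere than in either (adjusted p = 2.98e-05 against iCSC and 1.39e-05 against Monolayer).

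Of genes of vesicle endocytosis and recycling, 3 of 16 rose and 6 fell in Sphere against Monolayer (56.2% called against 59.0% over all genes). In iCSC against Sphere 4 rose and 3 fell (43.8% against 38.5%). SNAP91, a clathrin assembly protein of nerve terminals, averaged 2.68 ± 0.07 in iCSC, 7.81 ± 0.60 in Sphere and 2.14 in Monolayer, a signal at least 7.03-fold higher in Sphere than in either (limma, adjusted p = 3.82e-05 against iCSC and 1.13e-05 against Monolayer). DNM3, a dynamin that pinches off vesicles, averaged 10.03 ± 0.37 in iCSC, 5.52 ± 0.48 in Sphere and 11.53 ± 0.22 in Monolayer (SD, n = 2 each), a log2 fold change of 4.5 ± 0.28 in iCSC against Sphere and -6.01 ± 0.28 in Sphere against Monolayer (adjusted p = 5.63e-05 and 7.56e-06). DNM3 was lowest in Sphere, as was the leading VAMP2 probe set. The call in Sphere against Monolayer held for DNM3 under 16 of 16 alternatives and was lost for VAMP2 under 4 of 15. Of active zone scaffolds, the proteins that hold the release site together, 5 of 11 were called in Sphere against Monolayer, against 59.0% over all genes. Of these 5, PCLO, a large scaffold of the active zone, was measured in both cultures, averaging 9.60 ± 0.06 in Sphere and 7.90 ± 0.19 in Monolayer (SD, n = 2 each), and it rose (limma, adjusted p = 0.000142). RIMS2 and NRXN2 were under the limit on both Monolayer arrays. RIMS2 entered through Sphere alone and NRXN2 through both spheroid cultures. RIMS4 and PPFIA4 were under the limit on all 4 arrays, so no direction is read from the count. In iCSC against Sphere 3 of the 11 rose and 5 fell (72.7% called against 38.5%). There RIMS2 was under the limit on both iCSC arrays, and RIMS4 and PPFIA4 on both Sphere arrays, so no direction is read from this count either. ERC2 and PCLO, above the limit on all 6 arrays, were called in opposite directions. ERC2 averaged 8.36 ± 0.01 in iCSC and 5.44 ± 0.21 in Sphere (limma, adjusted p = 5.14e-05). PCLO averaged 6.78 ± 0.02 in iCSC, below both other cultures (limma, adjusted p = 3.1e-05 against Sphere).

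**Figure D4:**
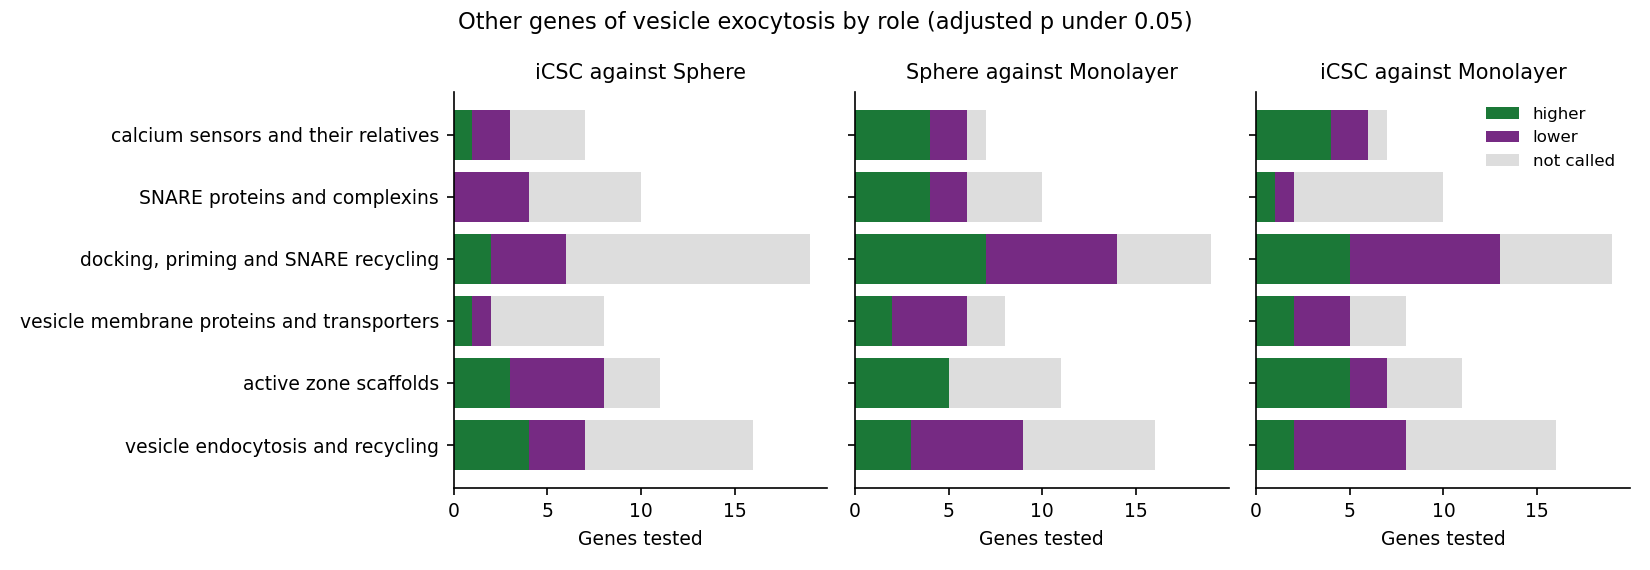
Number of tested genes (x axis) in each of 6 role groups (y axis) that were called higher, called lower or not called in iCSC against Sphere, Sphere against Monolayer and iCSC against Monolayer. In iCSC against Sphere 4 of 10 SNARE proteins and complexins were called, each of them lower; of the 5 active zone scaffolds called in Sphere against Monolayer, 4 were under the limit on both Monolayer arrays.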

How the data were processed

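Messenger RNA of SK-N-AS cells was measured on 6 Affymetrix HG-U133 Plus 2.0 arrays. The deposited table holds log2 signals for 54675 probe sets, which the authors made with GCRMA. Partek is named too, per the submitters' processing notes, but no source used here gives its role, a version or settings. Background correction in GCRMA draws unexpressed probe sets together at low values, so fitted folds that start there are no measure of size. Groups came from sample titles. GEO's platform annotation gave 41091 probe sets a single symbol, and 41037 of these were brought up to date by Entrez ID. Probe sets with log2 at least 5 on at least 2 arrays entered (18059), and per gene the highest mean led (10459 genes). limma 3.58.1 in R 4.3.3 fitted a mean per culture with eBayes and a variance trend on 3 residual degrees of freedom, two-sided, with Benjamini-Hochberg adjustment over all genes, and was tested on simulated data. Bounds ("at least") set values under 5 to 5.

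The rule for named genes took all members, up to 3 called genes per role group and comparison with the largest change, and REST with its cofactors. The text names part of them. PCLO, UNC13A, DOC2A and RAB3D were named outside this rule. Cell type markers and the genes nearest in profile came from their own lists or ranking. Members and lists were chosen with earlier results of these data known. Promoter windows and symbols came from RefSeq tables of GRCh38.p14. Alternatives were other filters, a floor, renewed quantile normalization, other probe set rules, other variance models, the arrays of 1 comparison alone, a replicate block and leaving out each array. Figures used matplotlib 3.10.9 in Python 3.11.15.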

Additional observations from a re-analysis of the deposited data

How the results depend on the processing

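Of 372 member fold changes computed under up to 16 alternatives, 336 kept their direction and side of the threshold, 26 lost a call, 8 gained one and 2 changed sign without a call. Those 2 were SV2A in iCSC against Sphere without iCSC replicate 1 (0.05, the range over arrays left out being -0.33 to 0.05) and SYT4 in Sphere against Monolayer without Monolayer replicate 1 (0.16, range -0.32 to 0.16). VAMP4, outside the members, had -0.37 in place of 0.67 in Sphere against Monolayer with the mean over its probe sets. Without variance moderation, 2, 3 and 3 members were called in iCSC against Sphere, Sphere against Monolayer and iCSC against Monolayer in place of 5, 6 and 6, and 5 member probe sets in each; in iCSC against Sphere 2281 genes in place of 4022 and 19 listed genes in place of 30 were called. At a filter of log2 7, 3 members and 5 member probe sets were called in iCSC against Sphere and 6 probe sets in Sphere against Monolayer, with fewer tested. Without x_at and s_at probe sets, 5, 4 and 5 member probe sets were called. Leaving out each array in turn gave 3 to 7, 4 to 6 and 4 to 7 members called, 8 to 12, 6 to 10 and 5 to 11 member probe sets, 2574 to 3883 genes in iCSC against Sphere, and 19 to 34 listed genes there; a culture left with 1 array is assumed to vary like the others. For these changes the cause was not tested, apart from the fewer genes or arrays some settings use. With the replicate number as a block, 6, 6 and 7 members were called. Deviations of same-numbered arrays correlated at 0.0186 (Monolayer with Sphere), -0.0530 (Monolayer with iCSC) and 0.173 (Sphere with iCSC). With 2 arrays per culture these values cannot tell whether same-numbered arrays share a batch.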

Other observations

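From 3 gene families, 1 pair each is given with 1 gene measured in Sphere and the other in iCSC, chosen here after their values were seen. Other members of the RAB3 and synaptotagmin families were measured in both spheroid cultures. RAB3D averaged 8.07 in iCSC and 8.36 in Sphere, and SYT11 10.14 and 10.96. RIMS2, an active zone scaffold, averaged 2.91 ± 0.11 in iCSC, 7.97 ± 0.09 in Sphere and 2.81 ± 0.07 in Monolayer (SD, n = 2 each), at least 7.81-fold lower in iCSC than in Sphere (limma, adjusted p = 5.23e-06). Its shorter relative RIMS4 averaged 7.35 ± 0.08 in iCSC, 3.69 ± 0.15 in Sphere and 1.77 ± 0.02 in Monolayer, with the iCSC signal at least 5.08-fold above Sphere (adjusted p = 1.98e-05). RAB3C, a vesicle GTPase like RAB3A, averaged 2.60 ± 0.04 in iCSC, 6.63 ± 0.40 in Sphere and 2.57 ± 0.05 in Monolayer, a signal at least 3.08-fold lower in iCSC than in Sphere (adjusted p = 3.89e-05). RAB3B averaged 6.27 ± 1.01 in iCSC, 2.58 ± 0.05 in Sphere and 2.55 ± 0.04 in Monolayer, with the iCSC signal at least 2.41-fold above Sphere (adjusted p = 0.000976), a bound of 1.47-fold without iCSC replicate 1 and 3.94-fold without iCSC replicate 2, and not called once values under 5 were raised to 5 (adjusted p = 0.061). SYT9, a calcium sensor of fast release, averaged 2.58 ± 0.17 in iCSC, 8.79 ± 0.28 in Sphere and 2.95 ± 0.23 in Monolayer, a signal at least 13.9-fold lower in iCSC than in Sphere (adjusted p = 6.63e-06). SYT17 averaged 5.65 ± 0.17 in iCSC, 2.49 ± 0.02 in Sphere and 2.50 ± 0.01 in Monolayer, with the iCSC signal at least 1.57-fold above Sphere (adjusted p = 3.62e-05). Each of the 6 genes in the 3 pairs entered the test through the culture where it was measured, so its direction there was set by the filter.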
